A study of Mus musculus with 6 samples.

Results

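The genes described are 9 genes of the glucocorticoid response out of the 19831 genes listed for mouse inguinal adipose tissue (iAT), a subcutaneous fat depot. They were chosen by name: the glucocorticoid receptor *Nr3c1*, the local activating enzyme *Hsd11b1*, and the induced targets *Fkbp5*, *Tsc22d3*, *Zbtb16*, *Sgk1*, *Mt1*, *Mt2* and *Cdkn1a*. All 9 were found in the table, and all 9 passed the filter on low values, which asks that both deposited values average at least 10. The study compared the iAT of 3 wild-type samples with that of 3 samples lacking *Npffr1* (Npffr1-KO), all collected at postnatal day 6. *Npffr1* encodes neuropeptide FF receptor 1, a receptor for RFamide neuropeptides. Both groups were kept under specific pathogen-free conditions and no treatment is named. The labels give neither strain nor sex, and they do not say how the mutation was made, whether it was limited to a cell type, or whether each sample was a separate animal. The p-values below therefore measure the spread between libraries, which may be technical.

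Glucocorticoids, mainly corticosterone in mice, enter cells and bind a receptor that the HSP90 chaperone machinery holds ready in the cytosol. The bound receptor moves to the nucleus, attaches to response elements in DNA and switches genes on or off, among them genes that restrain the receptor itself. In fat the hormone is also regenerated on the spot from its inactive form, and it promotes the maturation of preadipocytes.

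The authors deposited 1 value per gene and genotype, made from read counts normalized for library size, so 8 of the 9 genes have no spread and no test here. These values, called normalized counts below, are not the means of a genotype's libraries: the mean of both is the mean over all 6 libraries, and their ratio is drawn towards 0. They sum to 23137343 (wild-type) and 23640005 (Npffr1-KO) over all genes. For low genes the reads of each library were worked back from the mean of both values, which is a sum of whole reads divided by 6 size factors between 0.916 and 1.04. The 3 libraries of a genotype are called a, b and c, and these letters are not the sample numbers. *Npffr1* itself has deposited values of 1.12 (wild-type) and 0.855 (Npffr1-KO). The wild-type libraries held 1, 0 and 5 *Npffr1* reads and each Npffr1-KO library held 0, so the targeted gene checks the labels with 6 reads only. In Npffr1-KO library a, 215 reads of the muscle gene *Ckm* were found, against 1 to 6 in each of the other libraries. *Xist*, expressed from the inactive X chromosome of females, was at 1716 and 2464 in wild-type and Npffr1-KO, and the Y-linked *Ddx3y* at 1112 and 935. Transcripts of both sexes were thus present among the 6 libraries. The Y-linked *Eif2s3y*, *Kdm5d* and *Uty* were also lower in Npffr1-KO, with log2 ratios of Npffr1-KO to wild-type of -0.25, -0.18 and -0.17, while that of *Xist* was 0.52. The mix of sexes may thus differ between the genotypes. How many samples of each sex a genotype held cannot be read from values that are not means of its libraries. The part of sex in the ratios below was not tested.

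Among the 9 genes the receptor had the highest value. *Nr3c1* was at 3907 normalized counts in wild-type, higher than 94.8% of the listed genes. Divided by gene length, which allows genes to be compared, the wild-type order was *Mt1* with 929 normalized counts per kilobase, *Sgk1* with 925, *Tsc22d3* with 826, *Cdkn1a* with 767 and *Nr3c1* with 616. *Hsd11b1* with 261, *Mt2* with 222, *Fkbp5* with 171 and *Zbtb16* with 123 followed at a distance. With no spread, neighbours in this order cannot be said to differ, and *Mt1* and *Sgk1* were nearly level. The level of *Mt1* per kilobase was 7.57 times that of *Zbtb16*. In Npffr1-KO *Mt1* still led with 1294 per kilobase, and *Zbtb16* was still last with 54.9, while *Cdkn1a* with 592 stood below *Nr3c1* with 629. The plot of the values by gene shows both genotypes.

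**Figure D1:**
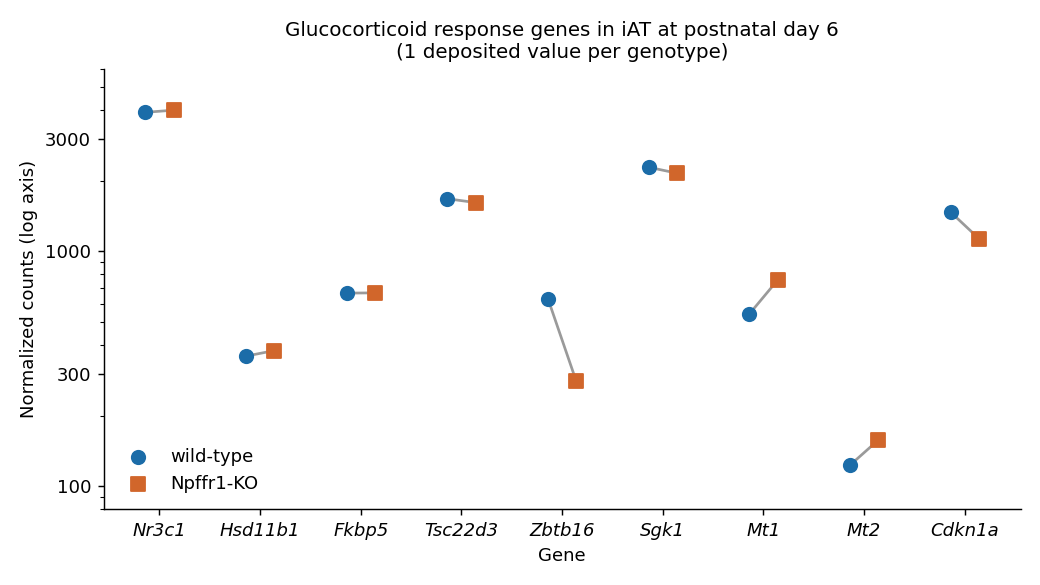
Normalized counts (log axis) of the 9 glucocorticoid response genes in wild-type (circles) and Npffr1-KO (squares) iAT at postnatal day 6, 1 deposited value per genotype, with a line joining the values of a gene. *Zbtb16* lies at 628 and 281, *Mt1* and *Mt2* lie higher in Npffr1-KO, *Cdkn1a* lies lower, and the other 5 lines are nearly flat.

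Between the genotypes the response did not move as a block. A gene was counted as past the threshold where its log2 ratio of Npffr1-KO to wild-type was at least 0.32 in size. Of the 9 genes, 4 were past it: *Mt1* and *Mt2* were higher in Npffr1-KO, and *Zbtb16* and *Cdkn1a* were lower. The other 5, which include the receptor, its activating enzyme and the targets *Fkbp5*, *Tsc22d3* and *Sgk1*, had log2 ratios between -0.08 and 0.08. The same filter kept 15309 genes, of which 23.7% were past the threshold either way, 12.0% higher and 11.6% lower. The median log2 ratio was 0.00 over the 9 genes and 0.01 over all 15309.

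Gene length moved with the ratio. In 20 classes of length, the median log2 ratio went from 0.27 in the class of the shortest genes (up to 837 bases) to -0.15 in that of the longest (from 7427 bases). *Mt1* and *Mt2*, with 583 and 556 bases, were in the class of the shortest. Centred on genes of like length, 2 of the 9 genes remained past the threshold, *Zbtb16* at -1.06 and *Cdkn1a* at -0.46 (log2 ratio), against 19.8% of all genes.

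**Figure D2:**
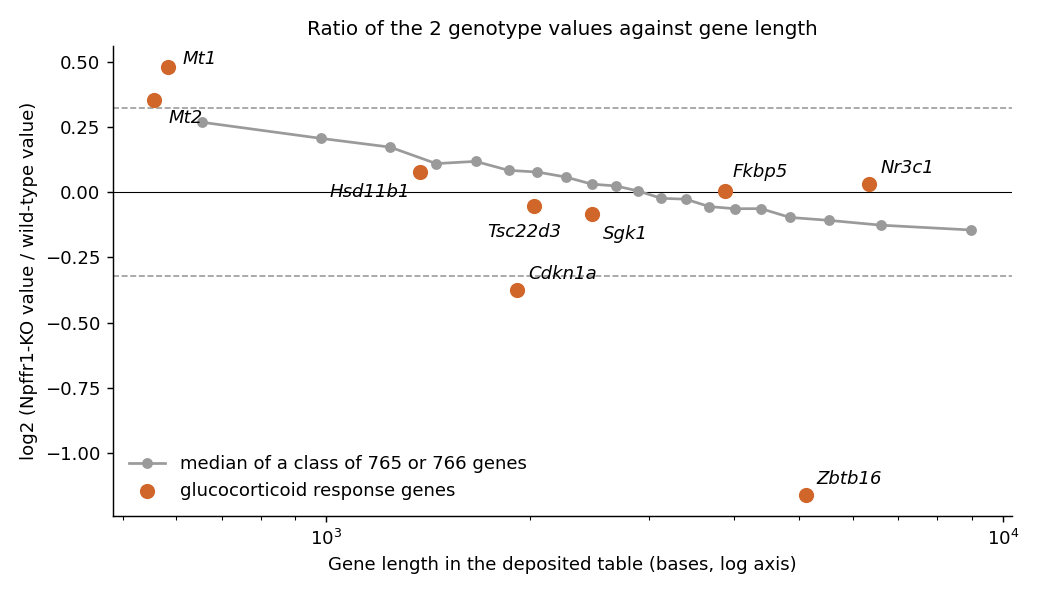
The log2 ratio of the Npffr1-KO to the wild-type value against gene length in bases (log axis), with the 9 glucocorticoid response genes named and the median of each of 20 classes of 765 or 766 genes joined by a line at the median length of its class. Dashed lines mark the threshold of 0.32; the class medians decline from 0.27 to -0.15, *Mt1* and *Mt2* sit above the left end, and *Zbtb16* lies far below the line.

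The receptor and its activating enzyme were nearly level. *Nr3c1* was at 3907 (wild-type) and 3991 (Npffr1-KO) normalized counts, a log2 ratio of 0.03. *Hsd11b1*, the reductase that makes active corticosterone from its inactive keto form, was at 359 and 378, a log2 ratio of 0.08. *Hsd11b1* lies on the minus strand of chromosome 1 (mouse genome build GRCm38) from 193221634 to 193264075, and *Nr3c1* on chromosome 18.

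Of 19 further genes of the receptor complex and of steroid handling, 18 had a mean of at least 10. Of these, 3 were past the threshold higher (16.7%) and 2 lower (11.1%), shares near the 12.0% and 11.6% of all genes, with a median log2 ratio of 0.01. Centred on genes of like length, 3 were higher and 1 lower. The 3 higher genes were *Hsp90aa1*, *Stip1* and *Fkbp4*. *Hsp90aa1*, the inducible HSP90, was at 5473 and 7392 normalized counts in wild-type and Npffr1-KO, a log2 ratio of 0.43. *Stip1*, which hands the receptor from HSP70 to HSP90, had a log2 ratio of 0.42. *Fkbp4*, the cochaperone that FKBP5 competes with, was at 2067 and 2740 (log2 ratio 0.41). The more abundant *Hsp90ab1* and *Hspa8* had log2 ratios of 0.29 and 0.26 and did not pass the threshold, nor did the cochaperones *Ptges3* and *Ppid*, each at 0.13. The lower 2 were *Abcb1a*, a drug and steroid efflux pump (352 and 247, log2 ratio -0.51), and *Nr3c2*, the mineralocorticoid receptor, which also binds corticosterone.

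Reads per library were recovered for 3 genes of this list, by a search that limits the ratio and the spread between libraries. *Nr3c2* had 86.9, 118 and 87.3 normalized reads in wild-type, against 53, 109 and 63.3 in Npffr1-KO. The genotypes overlapped, with Npffr1-KO library b as high as wild-type, and the difference (97.6 ± 18.1 against 75.1 ± 29.8, SD, n = 3 each) gave an exact two-sided permutation p of 0.3. *Hsd11b2*, which inactivates corticosterone, had 121, 123 and 86.3 normalized reads in wild-type, against 83.8, 81.7 and 157 in Npffr1-KO. The highest and the lowest of these 6 libraries were both Npffr1-KO (exact permutation p = 0.8). *Srd5a1*, a steroid reductase, lay between 120 and 145 in all 6 libraries. Of its 2 combinations of reads within the limit on the ratio, only 1 was within that on the spread, so this narrow range is in part set by the limit. With 3 against 3 libraries no exact p can be under 0.1.

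Of the direct targets, *Fkbp5*, *Tsc22d3* and *Sgk1* were nearly level too. *Fkbp5*, the HSP90 cochaperone that lowers the receptor's affinity for hormone and is induced by it in a feedback loop, was at 665 (wild-type) and 666 (Npffr1-KO) normalized counts, a log2 ratio of 0.00. *Tsc22d3*, which encodes the anti-inflammatory protein GILZ, was at 1676 and 1614, a log2 ratio of -0.05. *Sgk1*, the serum- and glucocorticoid-regulated kinase, was at 2282 and 2153, a log2 ratio of -0.08. *Fkbp5* lies on chromosome 17 from 28399094 to 28517527 and *Tsc22d3* on chromosome X from 140539528 to 140600659, both on the minus strand. *Sgk1* lies on chromosome 10 from 21882184 to 21999903 on the plus strand.

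Of the 7 genes whose promoter windows were used, *Sgk1* is the only gene with a window that holds a complete receptor palindrome, which is why that window is shown. The palindrome is AGAACA, any 3 bases, then TGTTCT, and it reads the same on both strands. From the RefSeq promoter table of build GRCm38.p6 (250 bases before to 50 after a start), 15 windows of 7 of the 9 genes were used. *Zbtb16* had none, and any window of *Nr3c1* was left out, so *Nr3c1* was not examined. The match is in 1 of the 6 *Sgk1* windows, at one of the gene's inner starts, and 3 of the 32851 windows of the table hold it (0.00913%). Capitals mark the palindrome.
*Sgk1* promoter, chr10:21993640-21993939, plus strand: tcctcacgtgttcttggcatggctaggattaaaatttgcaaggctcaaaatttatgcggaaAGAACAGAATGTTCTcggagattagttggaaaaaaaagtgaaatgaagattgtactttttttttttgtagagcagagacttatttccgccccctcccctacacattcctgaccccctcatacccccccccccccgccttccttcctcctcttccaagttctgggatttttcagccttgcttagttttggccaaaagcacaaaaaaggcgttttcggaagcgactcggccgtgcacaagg

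A shorter form, GNACA, any 3 bases, then TGTNC, matched the same *Sgk1* window and the *Mt1* window, and 0.475% of all windows. A match describes the letters and not the binding of the receptor. Around *Sgk1*, 13 kinases, channels and substrates were listed, of which 10 had a mean of at least 10. One was past the threshold, *Nedd4l*, a ubiquitin ligase that SGK1 inhibits, with 629 and 864 normalized counts (log2 ratio 0.46). The median log2 ratio of the list was -0.02, and against genes of like length 1 gene was higher and 1 lower. The SGK1 substrate *Ndrg1* had a log2 ratio of -0.32, just inside the threshold, and *Foxo1*, another, one of 0.03. *Scnn1a*, a subunit of the sodium channel that SGK1 regulates in the kidney, had 28.4 to 43.7 normalized reads in wild-type, against 25.1 to 46.4 in Npffr1-KO (limma log2 difference 0.03 ± 0.34, SE, n = 3 each).

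*Zbtb16* showed the largest difference of the 9 genes. It encodes PLZF, a zinc finger transcription repressor, which glucocorticoids induce in many tissues and which also directs the development of innate-like T cells. It was at 628 (wild-type) and 281 (Npffr1-KO) normalized counts, 2.24 times higher in wild-type (log2 ratio -1.16). Of the 15309 genes, 27 had a ratio as low or lower (0.176%, *Zbtb16* included), and 0.314% were at least 2-fold lower. Among the 1547 genes whose mean lay within 0.32 on the log2 scale of that of *Zbtb16*, 6 were at least 2-fold lower. *Zbtb16* is on the minus strand of chromosome 9 from 48654297 to 48836222, and 0.192% of the 31-base stretches in its transcripts occur in another gene. Its reads per library were not recovered, so how much of the difference one library makes cannot be said. The T cell markers were higher in Npffr1-KO: 4 of 4 (*Cd3e*, *Cd3d*, *Lck* and *Cd4*) were past the threshold. They summed to 4435 (wild-type) and 7000.2 (Npffr1-KO) normalized counts. No marker particular to innate-like T cells was listed, and the part of any cell type in the *Zbtb16* ratio was not tested.

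The other glucocorticoid-induced genes spread in both directions. Of 30 such genes, 29 had a mean of at least 10, of which 8 were past the threshold higher (27.6%) and 7 lower (24.1%), against 12.0% and 11.6% of all genes. Centred on genes of like length, 7 were higher and 9 lower. Their median log2 ratio was -0.06. Past 1.5-fold, 6 were higher and 2 lower. The list, like the others, was chosen with results of these data known.

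The higher genes were led by *Bcl6*, a transcription repressor of lymphocytes and of fat, with 514 and 1085 normalized counts in wild-type and Npffr1-KO (2.11-fold). *Gadd45b*, a stress-induced regulator of MAP kinases, was at 578 and 1180.0 (2.04-fold). *Pdk4*, the kinase that shuts pyruvate out of the mitochondrial fuel supply, was at 736 and 1458 (1.98-fold). *Rasd1*, a small G protein first found as a dexamethasone-induced Ras, was at 1713 and 2872 (1.68-fold). *Dusp1*, a phosphatase that ends MAP kinase signalling, was 1.64-fold higher, and *Zfp36*, which destabilizes cytokine mRNA, 1.52-fold. Several of these genes also answer to other stimuli, such as growth factors and fasting.

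The lower 2 past 1.5-fold were *Cdkn1c* and *Hif3a*. *Cdkn1c*, an imprinted inhibitor of the cell cycle, was at 5234 against 2761 normalized counts (wild-type, then Npffr1-KO), a log2 ratio of -0.92. *Hif3a*, a hypoxia-inducible factor subunit, was at 177 and 105 (log2 ratio -0.75). Its reads could be recovered: 162, 180.1 and 196 normalized reads in wild-type, against 100.2, 133 and 74.2 in Npffr1-KO. The genotypes did not overlap, with means of 179.6 ± 17.1 and 103 ± 29.6 (SD, n = 3 each) and an exact two-sided permutation p of 0.1, the smallest that 3 against 3 libraries allow. Among 2633 genes with recovered reads and a mean from 10 to 75, 10.5% had all Npffr1-KO libraries below all wild-type libraries and 6.57% above. This pattern was common in those genes, whose means lie below the 141 of *Hif3a*. The reads of *Hif3a* came from the search within limits, which narrow the ratio and the spread, so its lack of overlap is in part set by them. Of 4 combinations within the limit on the ratio, 1 was also within that on the spread. *Lcn2* and *Il1r2*, 2 more induced genes, overlapped: *Lcn2* had 62.8 to 91.3 normalized reads in wild-type and 56.9 to 84.0 in Npffr1-KO, and *Il1r2* had 33.3 to 52.2 and 42.4 to 69.6. The abundant metabolic targets *Pck1*, *Glul* and *Angptl4* had log2 ratios of -0.30, -0.18 and -0.40.

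**Figure D3:**
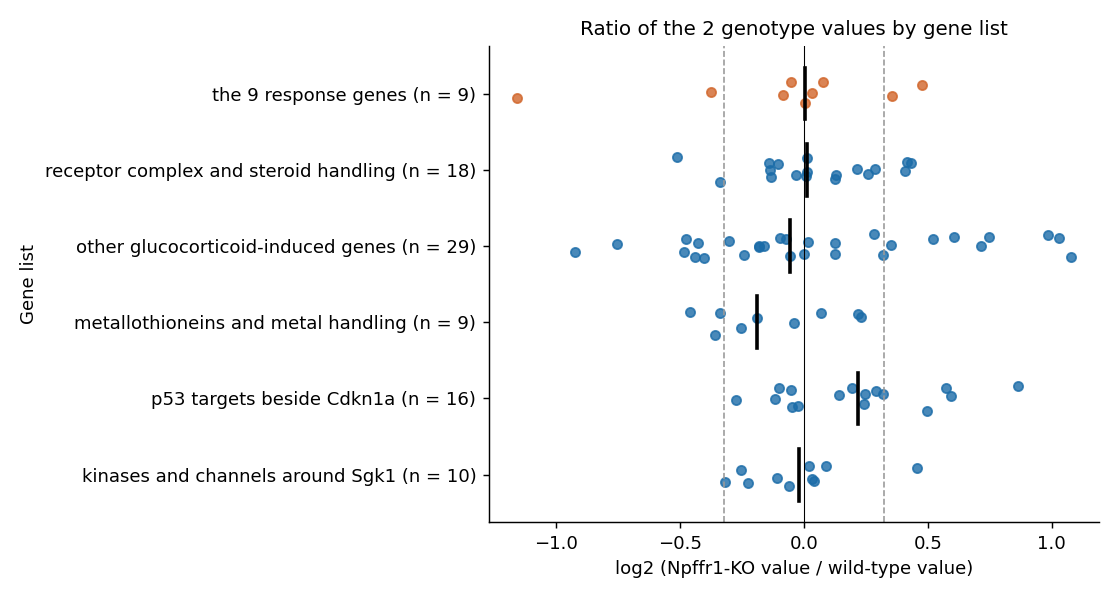
The log2 ratio of the Npffr1-KO to the wild-type value for each gene with a mean of at least 10, by list: the 9 response genes and 5 lists of related genes, with the number of genes beside each name. Black bars mark medians and dashed lines the threshold of 0.32. The other glucocorticoid-induced genes reach from -0.92 to 1.08 around a median of -0.06. The list of p53 targets, which also holds *Trp53*, has the highest median, 0.22.

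*Mt1* and *Mt2* were past the threshold higher in Npffr1-KO, but not when set against genes of like length. *Mt1* and *Mt2* encode small cysteine-rich proteins that bind zinc and copper, and both metals and glucocorticoids induce them. *Mt1* was at 542 (wild-type) and 754 (Npffr1-KO) normalized counts (1.39-fold, log2 ratio 0.48), and *Mt2* was at 123 and 157 (1.28-fold, log2 ratio 0.35). *Mt1* and *Mt2* are neighbours on chromosome 8, from 94179082 to 94180327 and from 94172664 to 94173568, both on the plus strand. Their transcripts share no stretch of 31 bases with each other, so reads of that length would tell them apart. *Mt1* was 4.40 times *Mt2* in wild-type and 4.79 times in Npffr1-KO. Against genes of like length the log2 ratios were 0.21 for *Mt1* and 0.09 for *Mt2*.

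The promoter windows of both genes are shown because they hold several matches to the element that the zinc-sensing factor MTF1 binds. Capitals mark the core of the metal response element, TGCACNC or TGCGCNC, on either strand. *Mt1* has 3 matches and *Mt2* has 4; at least 3 are found in 1.97% of the 32851 windows and at least 4 in 0.517%.
*Mt1* promoter, chr8:94178839-94179138, plus strand: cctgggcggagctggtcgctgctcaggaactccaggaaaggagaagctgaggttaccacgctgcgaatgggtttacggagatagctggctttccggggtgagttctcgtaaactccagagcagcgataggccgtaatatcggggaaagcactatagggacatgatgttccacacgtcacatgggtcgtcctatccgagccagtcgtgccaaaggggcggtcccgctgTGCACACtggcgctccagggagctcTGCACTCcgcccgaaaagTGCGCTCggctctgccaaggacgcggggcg
*Mt2* promoter, chr8:94172368-94172667, plus strand: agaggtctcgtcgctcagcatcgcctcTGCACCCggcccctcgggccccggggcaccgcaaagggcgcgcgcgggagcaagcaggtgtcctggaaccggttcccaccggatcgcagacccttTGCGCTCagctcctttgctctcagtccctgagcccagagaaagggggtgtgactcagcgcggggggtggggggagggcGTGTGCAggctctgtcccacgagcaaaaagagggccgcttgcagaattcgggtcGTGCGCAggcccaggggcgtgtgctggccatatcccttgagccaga

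*Mt2* is the 1 gene of the 9 whose reads were recovered. Of 3 combinations of whole reads that gave its deposited mean within the limits on the ratio, 1 had a spread between libraries within the 99th percentile of the lower genes. It holds 94, 110 and 168 reads in wild-type and 208, 145 and 119 in Npffr1-KO. The direction of the difference follows from the deposited values, which set the limits. Had *Mt2* varied more than nearly all lower genes, another combination could be the right one. In normalized reads these were 90.8, 108 and 167 in wild-type, against 200.5, 146 and 130 in Npffr1-KO. The highest wild-type library exceeded 2 of the 3 Npffr1-KO libraries, so the genotypes overlapped. The means were 122 ± 39.9 and 159 ± 36.9 (SD, n = 3 each), and the exact two-sided permutation p was 0.3. The highest library, Npffr1-KO library a, is the one with the many *Ckm* reads. Without it the log2 ratio of the means was 0.18 in place of 0.38 (exact permutation p = 0.6). The part of the muscle RNA in the value was not tested.

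**Figure D4:**
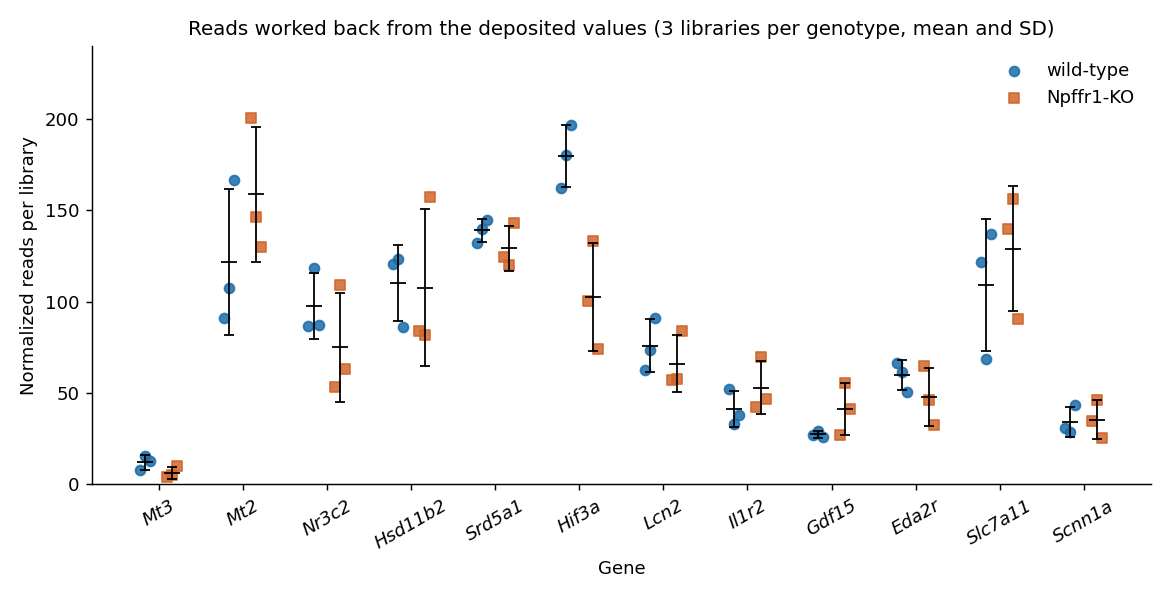
Normalized reads per library, worked back from the deposited values, of *Mt2* and 11 related genes in the 3 wild-type (circles) and 3 Npffr1-KO (squares) libraries, with the mean and SD of each genotype. *Hif3a* is the gene in the plot whose genotypes do not overlap (162 to 196 against 74.2 to 133), while *Mt2* overlaps (90.8 to 167 against 130 to 200.5).

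The other metallothioneins were nearly absent. *Mt3*, known from the brain, had 7.73, 15.7 and 12.9 normalized reads in wild-type, against 3.85, 5.05 and 9.82 in Npffr1-KO, lower on average while *Mt1* and *Mt2* were higher, and the genotypes overlapped (exact permutation p = 0.2). *Mt4*, known from squamous epithelium, had 7 reads in all 6 libraries. Of the 12 genes of this list, 9 had a mean of at least 10, of which 0 were past the threshold higher and 3 lower (33.3%, against 11.6% of all genes), with a median log2 ratio of -0.19. Against genes of like length the split was 1 higher and 1 lower. *Mtf1*, the zinc sensor that drives *Mt1* and *Mt2*, was at 593 and 622 normalized counts (log2 ratio 0.07). *Slc30a1*, a zinc exporter and a classic target of MTF1, was at 621 and 492 (log2 ratio -0.34). Against genes of like length *Slc30a1* was at -0.23 and *Mt1* at 0.21, both inside the threshold. The other lower genes were the zinc carriers *Slc39a10* (986 and 768) and *Slc30a2*, and *Slc30a2* overlapped between genotypes (27.4 to 44.7 against 16.4 to 29.3 normalized reads, limma adjusted p = 0.57). *Hmox1*, the oxidative stress gene heme oxygenase 1, had a log2 ratio of 0.23.

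*Cdkn1a* was lower in Npffr1-KO. It encodes p21, an inhibitor of cyclin-dependent kinases that glucocorticoids and p53 both induce. It was at 1470.2 (wild-type) and 1134 (Npffr1-KO) normalized counts, 1.30 times higher in wild-type (log2 ratio -0.37). That is near the threshold: 9.09% of all genes had a ratio as low or lower, and 14.6% of the 1840 genes of like mean were past the threshold either way. Against genes of like length it was -0.46. The gene lies on chromosome 17 from 29090976 to 29100727 on the plus strand, and 3.24% of its 31-base stretches occur in other genes.

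The first of its 2 promoter windows is shown because it holds 2 matches of the p53 half-site, marked by capitals and searched on both strands. At least 2 are found in 0.359% of the windows. Neither window holds a complete or a shorter receptor palindrome.
*Cdkn1a* promoter, chr17:29090729-29091028, plus strand: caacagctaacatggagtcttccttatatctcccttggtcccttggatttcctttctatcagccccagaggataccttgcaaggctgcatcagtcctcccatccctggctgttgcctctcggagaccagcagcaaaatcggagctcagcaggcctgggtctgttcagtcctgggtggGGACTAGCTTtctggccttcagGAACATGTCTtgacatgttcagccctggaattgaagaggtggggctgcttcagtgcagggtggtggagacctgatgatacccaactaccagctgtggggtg

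A further list of 16 genes held *Trp53*, the gene of p53 itself (log2 ratio 0.24), and targets of p53. All 16 had a mean of at least 10. Of these, 4 were past the threshold higher (25%, against 12.0% of all genes), 0 were lower and 12 did not pass. Of the 16, 10 had a ratio above 0 and 6 had one below 0 like *Cdkn1a*, with a median log2 ratio of 0.22 (0.12 against genes of like length). *Phlda3*, an inhibitor of AKT, was at 2598 and 4733 normalized counts in wild-type and Npffr1-KO (1.82-fold). *Btg2*, an antiproliferative gene, was at 2105 and 3180.3 (1.51-fold), and *Pmaip1*, which encodes the death factor NOXA, had a log2 ratio of 0.57. *Gdf15*, a stress cytokine, had 27.0, 29.4 and 25.8 normalized reads in wild-type, against 27.0, 55.5 and 41.5 in Npffr1-KO. Npffr1-KO library a lay within the wild-type range, and the difference did not pass (limma log2 difference 0.53 ± 0.34, SE, n = 3 each, adjusted p = 0.58). *Eda2r*, a receptor of the TNF family, had 66.6, 61.7 and 50.6 normalized reads in wild-type, against 64.6, 46.4 and 32.7 in Npffr1-KO, and overlapped too (adjusted p = 0.67 by limma). *Mdm2*, the p53 inhibitor that p53 induces, had a log2 ratio of -0.02.

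Markers of other cell types were also counted. Fewer cells of a type and less RNA per cell cannot be told apart in bulk tissue. The adipocyte markers were abundant, with a summed level (normalized counts) of 329392 in wild-type and 342975 in Npffr1-KO. Of them, 1 of 6 was past the threshold, *Lep*, which encodes leptin (4210.1 and 8703). The sums were 353 and 698 for skeletal muscle, with 4 of 4 measured markers past the threshold higher and *Myh4* at a single read, and 48763 and 38529.7 for endothelium, with 2 of 3 lower. Macrophage markers summed to 17266 and 20208 (2 of 5 higher), B cell markers to 8386 and 9958 (1 of 4 higher) and stromal progenitor markers to 19020.2 and 17096 (1 of 5 lower). Erythroid markers had 0 of 3 past the threshold. Centred on genes of like length, 3 of 4 muscle markers and the 4 T cell markers remained higher, and 0 endothelial, macrophage, B cell and stromal progenitor markers were past the threshold. The muscle difference rests on 1 library where reads were recovered: *Ckm* had 2, 3 and 2 reads in wild-type, against 215, 1 and 6 in Npffr1-KO. Its deposited wild-type value of 27.5, which enters the sum, lies far above the mean of 2.28 normalized reads in the wild-type libraries. Of the keratinocyte markers only *Krt10* passed the filter, and it was not past the threshold. *Krt5* had 21 reads in Npffr1-KO library a, 11 in wild-type library c and 0 in the others. The part of any of these in the members' ratios was not tested.

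Genes of steroid synthesis were also found. *Cyp11a1*, which starts steroid synthesis from cholesterol, had 153, 210.5 and 205 normalized reads in wild-type, against 99.3, 119 and 141 in Npffr1-KO. All Npffr1-KO libraries were below all wild-type libraries (189.5 ± 32.1 against 120 ± 20.8, SD, n = 3 each; exact permutation p = 0.1), in reads found within the same limits as for *Hif3a*. *Star*, which carries cholesterol into mitochondria, had 99.9 to 123 and 85.1 to 112 and overlapped, in reads from the same search (1 of 2 combinations kept). *Cyp11b1*, the last step of corticosterone synthesis and the defining marker of the adrenal cortex, was at 0.164 and 0.172, which is 1 read in the 6 libraries. The adrenal marker sum was 301 and 221.

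Across 2633 genes with a mean from 10 to 75 whose reads were recovered, limma called 0 at an adjusted p under 0.05 (0% called), and 319 had an unadjusted p under 0.05. Of the 54 genes in this range whose deposited values differed at least 2-fold, 0 were called. The median pooled SD between libraries was 0.32 on the log2 scale, and 10% of the genes exceeded 0.56, in the 565 genes with a mean of 50 or more. In these genes the deposited log2 ratio was 0.736 to 0.931 of that computed from the reads wherever the latter exceeded 0.3 in size, so the deposited ratios are drawn towards 0. The members other than *Mt2* have higher means, and their spread was not measured.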

How the data were processed

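RNA was extracted from iAT with TRIzol and sequenced in 6 samples. The submitters' processing notes name Bowtie2, RSEM and DESeq2 without versions. Genome build and annotation: not given in the sources used here. The authors deposited, per the file headers, 1 signal per gene and genotype, made from read counts normalized for library size and with a shrunken ratio between genotypes, together with gene length in bases (another deposited unit). Their columns of fold changes, p-values and adjusted p-values were not used, nor was a second table of 90 of the same genes. No column of per-sample values was used.

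Genotypes were taken from the sample labels. Log2 ratios of both deposited values were computed with no pseudocount for genes with a mean of at least 10, and the threshold was 0.32 in size. Single-read genes fall on 6 values, which give the size factors, and the genotype of each follows from the column in which these genes are higher. All combinations of whole reads were then searched for genes with a mean of 1 to 75, and 5271 genes had exactly 1. Members and list genes up to a mean of 160, and *Hsd11b1*, were searched within limits on the ratio and the spread. Of 12 so searched, 9 gave exactly 1 combination, and *Hsd11b1* gave 49. The muscle gene *Tnnt3* had 0 combinations within the limit on the ratio. For *Mylpf*, also a muscle gene, the 1 combination found was outside the limit on the spread. The limits may therefore not hold for every gene, those with reads given above included. Normalized reads were compared by exact permutation tests and, across genes, with limma 3.58.1 (trend, log2 of normalized reads plus 0.5, Benjamini-Hochberg). Both steps were run on simulated data. For the search within limits, the simulated ratio lay within the limits by design, so the simulation did not test these limits. Promoters came from RefSeq, gene places and 31-base stretches from GENCODE M21. Depth is known for recovered genes only, whose reads sum to 83478 to 105001 per library.

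Members and lists were chosen with earlier results of these data known. By plan, named genes were the members, the 3 highest of each list and those past 1.5-fold. Of these, *Slc39a1*, *Ei24* and *Ndrg2* (log2 ratios -0.04, -0.05 and 0.09) and several cell type markers are not described above. The other list genes named were chosen after their values were seen. Alternatives were other scalings, thresholds, filters, pseudocounts and left-out libraries. Python 3.11.15, numpy 2.4.6, pandas 2.3.3, scipy 1.17.1 and R 4.3.3 were used.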

Additional observations from a re-analysis of the deposited data

How the results depend on the processing

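Of the 9 genes, 4 were past the threshold when the values were divided by the sum of their column, when they were centred on the median gene, and with 10 added to both values; centred on genes of like length, 2 were. No log2 ratio past the threshold changed sign under these settings. Of the others, *Nr3c1* and *Fkbp5* changed sign by column sums, *Fkbp5* also centred on the median gene and *Hsd11b1* centred on length, all well inside the threshold. Over the 119 genes of all lists and markers, 44 were past the threshold, 18 at a threshold of 1.5-fold, 82 at one of 1.1-fold, 39 with a mean of at least 100, 47 with no filter and 37 centred on length. Calls by limma were 1 in place of 0 with a pseudocount of 2, with a minimum mean of 1 (of 5271 genes) and without the mean-variance trend, and stayed at 0 with a minimum mean of 50 or with libraries scaled by their recovered reads. Leaving out 1 library at a time, they were 0 without Npffr1-KO library a and 1 without each of the others, 0 to 1 in all. The log2 ratio of *Mt2* was 0.38 from its reads, 0.44 scaled by recovered reads and 0.35 from the deposited values, which was added after the data were seen, and it ranged from 0.18 without Npffr1-KO library a to 0.68 without wild-type library c, with exact permutation p from 0.2 to 0.6, where 0.2 is the smallest that 3 against 2 libraries allow. The cause of these shifts was not tested. No paired analysis was possible because the recovered libraries carry no replicate number. Reads per library were not recovered at higher means, since several combinations of whole reads then matched (300 of 300 genes with a mean of 100 to 120 in the open search).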
